A study of Mus musculus with 22 samples.

Results

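The chromosome 10 array is a tandem run of 7 near-identical mouse genes, Gm21293, Gm6763, Gm8764, Gm21304, Gm21312, Gm20765 and Gm4340, and these 7 are described here out of 55487 genes listed in each of the 2 deposited tables. The members were chosen by their measured reads in FL against mCherry, where they differed most. Every comparison with the FL or mCherry libraries is therefore given as a description, without a test. The tests between other groups still draw on these libraries for the spread that all groups of a table share. The RNA came from Dux-/- mouse embryonic stem cells, grown in 2iLIF, a medium that holds them in the naive state. In every group, the control included, a transgene was induced with doxycycline at 0.25 ug/mL for 12 hours, and each line carried an mCherry fusion of DUX, a DUX derivative, or mCherry alone.

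The groups, each of 2 libraries, are FL (full-length DUX), mCherry (the tag alone), C1+14, C3+14, the chimeras C1C3a, C1C3b and C1C3c, C12345delt14, deltC12345+14 and deltC12345delt14. The names are those of the labels, where delt marks a deleted part; the labels do not describe the chimeras further, and do not say whether the 2 libraries of a group came from separate cultures or whether a line is a clone, so the spread between them may be technical. C3delt14 is not analysed here. The chimera table comprises mCherry, C1+14, the chimeras, C3+14 and FL. A second, deletion table repeats the FL libraries and adds C12345delt14, deltC12345+14 and deltC12345delt14. The authors scaled the tables separately, so groups were compared only within a table.

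DUX carries a pair of homeodomains, is expressed briefly in the early mouse embryo, and activates transcription of genes of the 2-cell stage. Many of its targets lie in multicopy families, among them the Zscan4 and Tcstv genes. The array's genes resemble Alyref, which codes for an adaptor that hands messenger RNA to the nuclear export machinery; what the array's own products do is not stated in the sources used here.

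In GRCm38 with the GENCODE M21 annotation the array spans chromosome 10 from 104142987 to 104196522 on the plus strand, which is 53.5 kb. Successive starts are 8509 or 8510 bases apart. Each member has a protein-coding model of 2 exons with an intron of 1222 to 1224 bases. The spliced models of 6 members are identical over 1246 bases, and that of Gm4340 is 1258 bases long. The difference is 12 inserted bases, or 4 codons, in a coding repeat of CAG and AAG codons, with 0 substitutions in the rest. One further exon of a Gm21293 transcript, 136 bases at 104153539 to 104153674, lies inside Gm6763. The 2 nearest listed genes before the array, Gm47227 and Gm47228, lie 60.6 and 46.2 kb away, and the 2 after it, Gm22339 and Mir6411, 28.3 and 90.7 kb away. Gm47227 and Gm47228 are processed pseudogenes, Gm22339 is an snRNA gene and Mir6411 a miRNA gene. These 4 neighbours had 0 reads in all 20 libraries. Poly(A) libraries may not record such genes, so the zeros say little about the surroundings of the array.

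**Figure D1:**
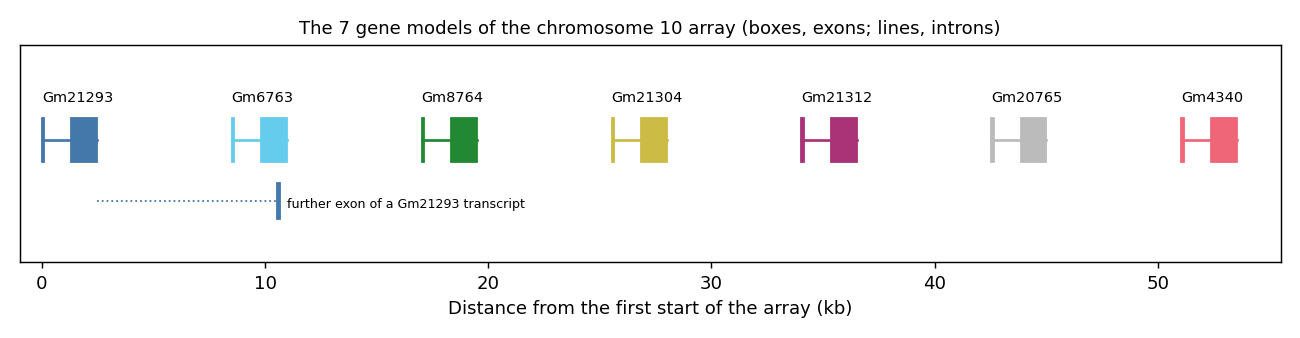
The 7 gene models drawn to scale along the array, as distance in kb from the start of Gm21293 (boxes, exons; lines, introns). The copies repeat at even spacing of about 8509 bases, and the further exon of a Gm21293 transcript falls within Gm6763.

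The inserted codons are the only sequence difference between the spliced models, so the same stretch is shown for Gm21293, which stands for the 6 identical models (chr10:104145018-104145125, plus strand, GRCm38), and for Gm4340 (chr10:104196072-104196191, plus strand), with the inserted bases in capitals.
Gm21293: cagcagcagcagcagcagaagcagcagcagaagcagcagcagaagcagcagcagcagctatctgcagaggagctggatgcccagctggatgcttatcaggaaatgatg
Gm4340: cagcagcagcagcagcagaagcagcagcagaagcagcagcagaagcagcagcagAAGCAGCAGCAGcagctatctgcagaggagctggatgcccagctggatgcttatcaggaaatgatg

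The start-site sequences are as alike as the transcripts. RefSeq promoter windows of 300 bases (GRCm38.p6) were found for 6 of 7 members, all but Gm6763. They were identical except for G1C in Gm21312 and Gm4340, where position 1 is the first base of the window and the reference is Gm21293. The 250 bases before the start of Gm4340 (chr10:104193792-104194041, plus strand) are shown as the start-site sequence that the copies share; the capitals mark GATTNAATC, which begins 146 bases before the start, and TATAA, which begins 30 bases before it.
Gm4340: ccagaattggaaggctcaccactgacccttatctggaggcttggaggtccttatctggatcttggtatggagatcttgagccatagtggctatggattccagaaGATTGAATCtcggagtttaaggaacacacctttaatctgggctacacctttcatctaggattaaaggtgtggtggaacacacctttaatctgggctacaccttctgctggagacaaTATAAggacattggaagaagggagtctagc

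GATTNAATC, read on both strands, was found in 6 of 6 member windows and in 0.268% of 32851 promoter windows of the same length. TATAA on the plus strand, beginning 40 to 20 bases before the start, was found in 6 of 6 and in 3.52%. With a T directly before it and an A directly after it, GATTNAATC was in 0 of 6 on either strand and in 0.0335% of all windows, and GATTNNATC with the same flanks was in 0 of 6 and in 0.207%; these longer forms contain or overlap the shorter. These are letter matches and nothing about binding follows from them.

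Near-identity limits how the members can be read. Of the stretches of 50 bases in the members' transcripts, 1240 occur in all 7, 14 only in Gm4340, 38 only in Gm21293, and 0 only in any of the other 5. In each member, 174 stretches also occur in genes outside the array. How the authors treated reads that match several genes is not given in the sources used here, but the C1+14 libraries list 1 read in every member and 2 reads in every member, and the second deltC12345delt14 library lists 1 in every member. A single read may thus have been counted at up to 7 genes, so the array sum is a sum of counts and not a number of distinct reads, and the members are not 7 independent measurements.

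Library totals, taken as the sum of counts over all genes, ran from 21059953 to 40448890. A read that matches several genes may enter a total more than once, and percents of reads are percents of these totals. A count of 1 is worth between 0.620 and 1.81 normalised reads, the deposited unit. All 8 pluripotency markers checked were above 3 reads in every group of the labelled embryonic stem cells, and their summed level ran from 27487 normalised reads in a C1C3b library to 85267 in an mCherry library of the chimera table. Feeder fibroblast markers summed to between 119 and 360 normalised reads there. In the deletion table they summed to 183 to 281 in FL and C12345delt14 and to 496 to 741 in the groups lacking C12345, with 4 or 5 of 6 above 3 reads in each group and Lum at 0 in all but C12345delt14. The 4 primitive endoderm markers, all above 3 reads in every group, summed in the chimera table to 52.8 to 59.2 normalised reads in mCherry, 154 to 179 in C1+14, 191 to 207 in C1C3c, 510 to 549 in C1C3b, 251 to 445 in C1C3a, 402 to 457 in C3+14 and 88.1 to 88.4 in FL. The part of these cell types in the array's values was not tested. Duxf3 and Gm4981, the annotated copies at the deleted locus, had 0 reads in all 20 libraries and so do not check the transgenes. A set of 1607 other high-copy genes, those with at least 50% of their sampled 50-base stretches in 20 or more genes, held 1.71% to 2.64% of reads in 14 libraries and 0.347% to 0.477% in 6. The lower set comprises both libraries of C3+14 and mCherry, replicate 2 of deltC12345+14 and replicate 1 of deltC12345delt14. Since C3+14 is the only group of the lower set with array reads above the floor, what sets C3+14 apart in the array cannot be told apart from this difference between libraries.

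In FL the array's counts were high. Their sum equalled 19.2% of reads in replicate 1 and 12.3% in replicate 2. That sum may count 1 read at up to 7 genes, so it is not a share of distinct reads. The highest single member, Gm21293, held 3.15% and 2.00%. Gm21293 had 1014275 and 629171 reads, Gm6763 673759 and 430454, and Gm4340 852419 and 535315. The 2 FL replicates differed from each other by more than the members did. In mCherry all 7 members had 0 reads in both libraries, which allows up to 3 reads per library at each member. Set against that floor, which covers counting error only, FL was at least 330577-fold (Gm6763) to 492726-fold (Gm21293) higher. mCherry is of the lower high-copy set and FL of the higher, so group and set cannot be told apart in these folds. FL against mCherry is the contrast that chose these genes, and these folds only describe it. In bulk RNA, fewer cells that express a gene and less of its RNA in each cell cannot be told apart.

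**Figure D2:**
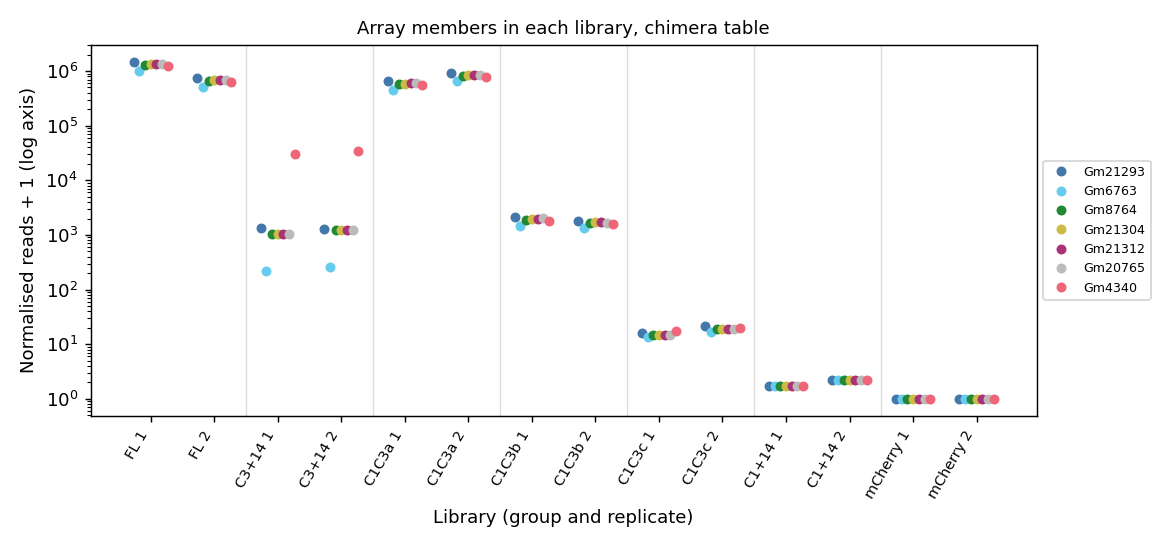
Normalised reads plus 1 (log axis) of each member in each of the 14 libraries of the chimera table; each point is 1 gene in 1 library. Gm21293 lies at a mean of 1121672 in FL, 788627 in C1C3a and 1966 in C1C3b, at 18.0 in C1C3c, and at 0 in mCherry, and Gm4340 stands 28.8 times or more above the median of the others in the C3+14 libraries.

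Between the chimeras the array fell in large steps. The C1C3a libraries held 591249 and 651841 reads of Gm21293, 408024 and 455674 of Gm6763 and 504874 and 558422 of Gm4340. C1C3b had 2406 and 1940 reads of Gm21293, 1691 and 1416 of Gm6763, and 2051 and 1705 of Gm4340. C1C3c had 20 and 31, 17 and 23, and 22 and 28 reads of the same genes. The libraries of these groups did not overlap in any member. With 2 libraries in each group and reads shared between members, this only describes them, and the share of all genes that separate likewise is not given. In normalised reads the array sum came to 4869849 ± 1182076 for C1C3a and 12353 ± 1207 for C1C3b. For C1C3c it was 113.6 ± 21.04 and for C1+14 6.90 ± 2.52 (SD, n = 2). Relative to the FL mean these are 71.1% ± 17.2, 0.180% ± 0.0176, 0.00166% ± 0.000307 and 0.000101% ± 3.68e-05. These SDs, and those of the later percents of FL, leave out the spread of FL itself. For the array in FL of the chimera table that SD was 46.4% of the mean. C1C3a and FL overlapped, since FL replicate 2 lay within the range of C1C3a.

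The step from C1C3a to C1C3b was 394-fold in the array sum, and between 390-fold (Gm6763) and 401-fold (Gm21293) in the members. With limma and Benjamini-Hochberg adjustment over 21584 genes, where a gene is called at an adjusted p below 0.05 if it also changed at least 1 log2 unit either way, 7 of 7 members were called higher in C1C3a (log2 fold changes 8.59 to 8.63, SE 0.26 to 0.28, highest adjusted p 1.19e-10). Of all genes tested, 17.3% were called higher and 18.3% lower. Calls were 48.6% higher ones, and 20.5% when each library was scaled to the same total.

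From C1C3b to C1C3c the array sum fell a further 109-fold, with members between 95.7-fold (Gm4340) and 116-fold (Gm20765). All 7 members were called higher in C1C3b (log2 fold changes 6.50 to 6.78, highest adjusted p 6.79e-09, limma), against a background of 7.66% of genes called higher and 3.53% lower. Of the calls 68.5% were higher ones, and 45.8% with equal library totals.

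C1+14 was the low end of the tested groups of the chimera table. With 1 and 2 reads in every member it lies within the floor of 3 reads, so its ratios carry wide counting intervals (95%, exact Clopper-Pearson on the reads of the member, counting error only). C1C3c was 18.1 times C1+14 for Gm21293 (interval 5.84 to 90.5) and 14.2 times for Gm6763 (4.51 to 71.6). C1C3b was 1958 times C1+14 for Gm21293 (669 to 9497), and C1C3a 767242 times (262535 to 3720436). The 7 members share reads, so their intervals are not independent.

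Against C1+14, limma called all 7 members higher in C1C3a (log2 fold changes 18.06 to 18.59, adjusted p 1.04e-14), in C1C3b (9.48 to 9.96, highest adjusted p 2.32e-11) and in C1C3c (2.94 to 3.25, highest adjusted p 1.72e-05). These fitted values depend on the pseudocount of 1, since C1+14 is at the floor. The background was 23.4% of genes called higher and 17.3% lower for C1C3a, 17.9% and 11% for C1C3b, and 5.37% and 2.46% for C1C3c. Higher calls made up 57.5% of calls for C1C3a and 61.9% for C1C3b, and 21.3% and 46.0% with equal library totals. The C1C3c result rests on the spread shared by all groups of the table: fitted on the C1C3c and C1+14 libraries alone, 0 of 7 members were called (highest adjusted p 0.132), and of all 21584 genes 0 were, with 4180 at an unadjusted p under 0.05. Over all groups, edgeR and DESeq2 on the recovered reads each called 7 of 7. The 3 comparisons share the C1+14 libraries.

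C3+14 differed from the chimeras in how the counts were spread over the copies. Gm4340 had 18060 and 21664 reads, whereas Gm21293 had 803 and 810, Gm8764 629 and 757, Gm21304 625 and 751, Gm21312 625 and 752, Gm20765 625 and 751, and Gm6763 129 and 158. Gm4340 thus held 84.0% and 84.5% of the array's counts, and was 28.9 and 28.8 times the median of the other 6. In the 10 libraries of FL, C1C3a, C1C3b, C1C3c and C12345delt14 that ratio ran from 0.919 in a C1C3b library to 1.22 in a C1C3c library, and Gm4340 held 13.6% to 16.8%. Gm4340 has stretches of its own, those across the inserted codons printed above. The second gene with such stretches, Gm21293, was the highest of the other 6 in C3+14, but also in FL, the chimeras and C12345delt14. The group and the lower set of libraries cannot be told apart here.

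**Figure D3:**
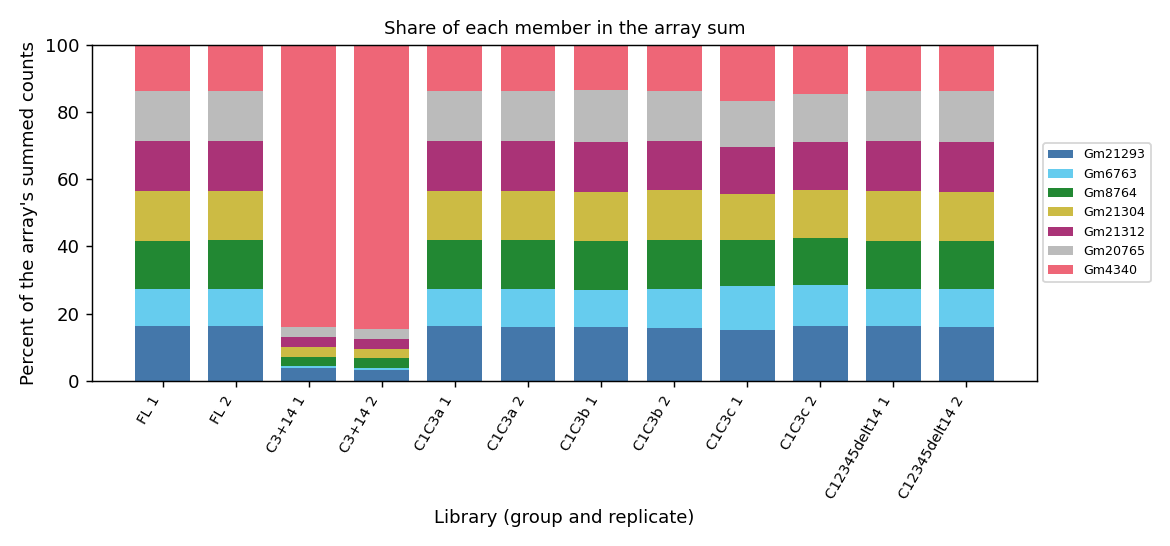
Percent of the array's summed counts held by each member, for the 12 libraries with the sum above its floor (stacked bars, 1 per library, adding to 100). Gm4340 holds over 84% in both C3+14 libraries and under 17% in the others.

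Smaller differences between the copies recurred across libraries. Gm6763 had 0.66 to 0.73 of the reads of Gm21293 in FL, C1C3a, C1C3b and C12345delt14, and 0.16 and 0.20 in C3+14. In C1C3c, where no member had more than 31 reads, Gm6763 had 0.85 and 0.74 of the reads of Gm21293. Both have identical spliced models, and the further exon of Gm21293 overlaps Gm6763; its part in the difference was not tested. Of the identical copies that overlap no other member, Gm8764, Gm21304, Gm21312 and Gm20765, each had between 524430 and 541726 reads in C1C3a replicate 1.

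C3+14 carried an array sum of 36015 and 41532 normalised reads, 0.566% ± 0.0569 of FL (SD, n = 2). Against mCherry the members were at least 104-fold (Gm6763) to 14353-fold (Gm4340) higher, the only comparison of C3+14 with a group of the same set of libraries. Against C1+14 limma called 7 of 7 members higher, with log2 fold changes from 6.91 for Gm6763 to 14.01 for Gm4340 (highest adjusted p 1.84e-10), over a background of 25.9% of genes called higher and 18.7% lower. Of those calls 58.2% were higher ones, and 27.3% with equal library totals. The ratio to C1+14 was 32504 for Gm4340 (counting interval 11121 to 157621) and 235 for Gm6763 (79.6 to 1145).

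Set against C3+14, C1C3a was 20.6 times higher for Gm4340 and 2323 times higher for Gm6763, with the other 5 members between 594 and 639 times. C1C3a is of the higher high-copy set and C3+14 of the lower. Group and set cannot be told apart in this comparison. The 7 members were called higher in C1C3a (log2 fold changes 4.35 to 11.16, highest adjusted p 9.57e-08, limma) where 7.52% of genes were called higher and 7.38% lower. Of a list of 36 other 2-cell and DUX-responsive genes, 0 were called higher in C1C3a than in C3+14 and 5 lower, with a median log2 fold change of 0.09 beside -0.06 over all genes. Zfp352, a zinc finger gene of the 2-cell stage with only 7.35% of its sampled stretches shared, stood at 22928 and 29459 normalised reads in C1C3a and 28261 and 30663 in C3+14, which overlap, a log2 fold change of -0.18 with SE 0.40 (adjusted p 0.789, limma). Zscan4c, of a family linked to telomere maintenance in stem cells, was lower in C1C3a by 1.12 on the log2 scale (adjusted p 0.0488).

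The deletion table gave a high group, a low pair and nothing between. C12345delt14 had 536941 and 473952 reads of Gm21293, 357218 and 336642 of Gm6763 and 452160 and 410032 of Gm4340. The array sum was 36.4% ± 10.9 of FL (SD, n = 2), and both C12345delt14 libraries lay below both FL libraries. As a sum of counts, not of distinct reads, it equalled 8.38% ± 1.47 of library reads beside 15.8% ± 4.87 in FL. In deltC12345+14 every member had 0 reads in both libraries. In deltC12345delt14 every member had 0 reads in replicate 1 and 1 in replicate 2.

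**Figure D4:**
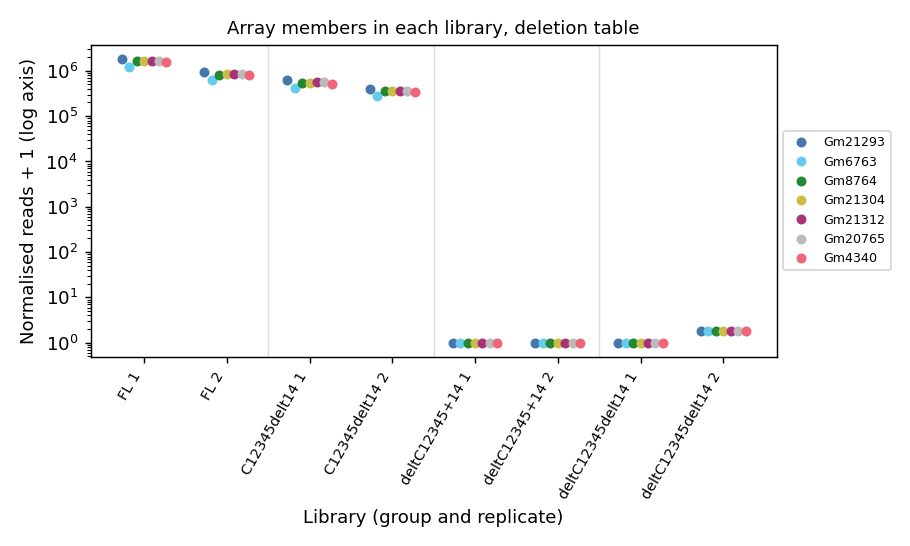
Normalised reads plus 1 (log axis) of each member in each of the 8 libraries of the deletion table; each point is 1 gene in 1 library. Gm21293 lies at a mean of 1387403 in FL and 501183 in C12345delt14, and the members of the 4 libraries lacking C12345 have 0 or 1 read.

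Against deltC12345+14, whose libraries were at 0, C12345delt14 was at least 160693-fold (Gm6763) to 235368-fold (Gm21293) higher. Against deltC12345delt14, with 1 read per member in all, the ratio was 1170383 for Gm21293 (counting interval 210060 to 46227695). Limma called 7 of 7 members higher in both comparisons, with log2 fold changes of 18.36 to 18.90 (highest adjusted p 3.42e-08) and 17.92 to 18.46 (highest adjusted p 3.61e-08), over 19833 genes. These fitted values are no bounds, since both low groups are at or under the floor and the values depend on the pseudocount of 1: they became 21.68 to 22.22 and 20.07 to 20.61 with a pseudocount of 0.1, and 15.36 to 15.90 and 15.29 to 15.83 with 8. The background was 11.5% of genes called higher and 8.27% lower against deltC12345+14, and 12.6% and 9.4% against deltC12345delt14. Higher calls made up 58.2% and 57.3% of calls, and 24.96% and 27.3% with equal library totals. Both comparisons share the C12345delt14 libraries. The 2 low groups each hold 1 library of either high-copy set, and the array was at 0 or 1 read in all 4.

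Between deltC12345+14 and deltC12345delt14 the array lay at or under the floor in both groups, so no fold was taken. The members passed the filter on low values only through FL and C12345delt14, so a test of them here says nothing about the array. By limma 0% of the 19833 genes were called higher and 0% lower, the members among them; 543 genes had an unadjusted p under 0.05. edgeR called 0 genes and DESeq2 2.

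The 25 genes outside the array that scored best when the Gm4340 model was aligned to all transcripts were taken as its relatives, without regard to their levels. They are 23 Alyref-like genes, Alyref and Alyref2. A cluster of 15 lies 3.75 Mb away on chromosome 10, from 100297941 to 100397070, and 8 genes lie on chromosome 1. Gm4302 of that second cluster is 94.5% identical to Gm4340 over 770 bases, and Gm4301 88.6% over 913. Alyref itself, on chromosome 11, is 82.6% identical over 568 bases. Alyref stood at 2920 and 3299 normalised reads in C1C3a and 1909 and 2290 in C1+14, a log2 fold change of 0.57 with SE 0.15 (adjusted p 0.00515, limma), which is under the fold a call needs; Alyref was called in 0 of the 10 comparisons. Alyref2 was called higher in C1C3a than in C1C3b by 1.27 on the log2 scale (adjusted p 0.0378, limma). It was also called higher in C3+14 than in C1+14, by 1.64 (adjusted p 0.00933). Copies of the second cluster also share sequence with each other (all sampled stretches of Gm4301 do), so they too are read as a sum.

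The second cluster was on in the same groups as the array but at other levels. Its summed counts were 281304 and 223477 reads in FL, 19066 and 16451 in C1C3a, 16291 and 16373 in C3+14, 11344 and 15803 in C1C3b, 370 and 1112 in C1C3c, 8 and 7 in C1+14 and 0 in mCherry. As a percent of FL these were 6.52 ± 0.454 in C1C3a, 7.91 ± 0.161 in C3+14, 3.64 ± 1.02 in C1C3b and 0.152 ± 0.0983 in C1C3c (SD, n = 2). In C12345delt14 the second cluster stood at 29.02% ± 4.46 of FL, beside 36.4% for the array. In C1C3a, by contrast, the array stood at 71.1% of FL and the second cluster at 6.52%, in libraries of the same high-copy set.

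The array's counts were 21.96 and 17.3 times those of the second cluster in FL, 27.6 and 22.3 times in C12345delt14, 191 and 245 times in C1C3a, 1.32 and 1.57 times in C3+14, 1.33 and 0.775 times in C1C3b, and 0.354 and 0.171 times in C1C3c, where the second cluster held more counts than the array in both libraries. The libraries of C1C3a did not overlap those of any other group in this ratio. The ratio is a sum over genes chosen with results known, so it is given as a description and was not tested. It sets counts added over 7 genes against counts added over 15. In each array member 174 stretches also occur in genes outside the array, so the 2 sums may share reads. For C3+14, here and in the calls below, group and high-copy set cannot be told apart. Between C1C3a and C1C3b, where 7 of 7 array members were called, 4 of 15 genes of the second cluster were called higher and 0 lower (median log2 fold change 0.89, limma), beside 17.3% of all genes called higher and 18.3% lower. Between C1C3a and C3+14 it was 2 higher and 0 lower of 15 (median -0.05), beside 7.52% and 7.38%. The chromosome 1 genes had 0 of 8 called higher and 6 lower in that comparison (median -1.98).

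**Figure D5:**
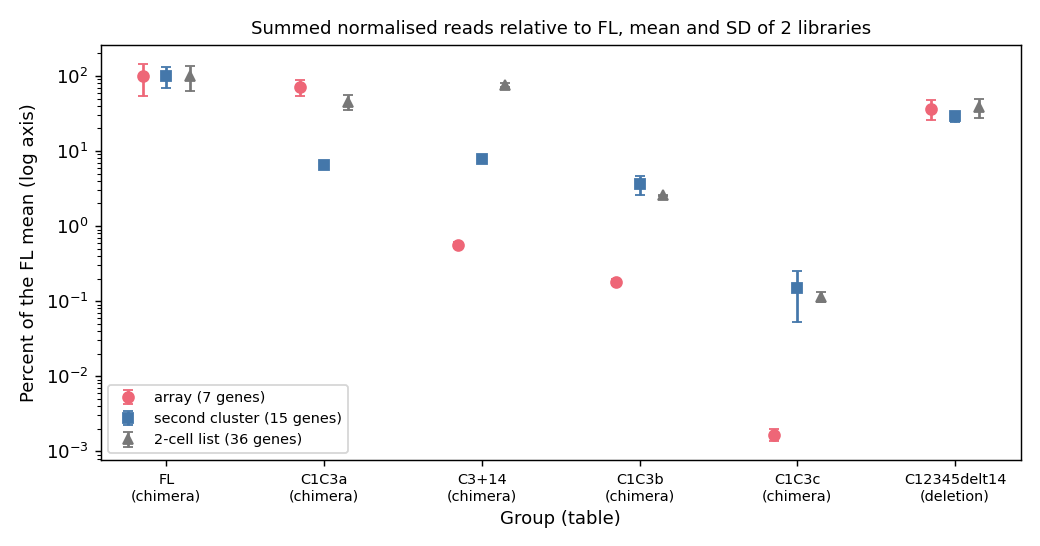
Summed normalised reads of the array, the second cluster and the list of 36 other 2-cell genes as a percent of the FL mean of the same table (log axis; points, mean of 2 libraries; bars, SD). In C1C3a the array stands at 71.1% and the second cluster at 6.52%. In C3+14 they stand at 0.566% and 7.91%, but its libraries are of the lower high-copy set. Group and set cannot be told apart there.

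The list of 36 other 2-cell genes stepped down with the array across the chimeras. Its summed level was 45.6% ± 10.7 of FL in C1C3a, 75.6% ± 4.45 in C3+14, 2.56% ± 0.0238 in C1C3b and 0.115% ± 0.0173 in C1C3c (SD, n = 2). Of the 36 genes 34 were called higher in C1C3a than in C1C3b and 34 in C1C3b than in C1C3c, with 0 lower in each, and medians of 5.47 and 4.23 on the log2 scale beside 0.07 and 0.09 over all genes tested, of which 17.3% and 7.66% were called higher. In C1C3c against C1+14, 24 were called higher and 0 lower, with a median of 2.21 beside 0.00 and 5.37% of all genes called higher. Fitted on the C1C3c and C1+14 libraries alone, 0 of all 21584 genes were called, those 24 included. The list was chosen with results of these libraries known, so these counts describe it and support nothing.

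By named gene, Usp17lc, a deubiquitinase of a DUX-responsive family, counted 34852 and 37058 in C1C3a, then 1633 and 2447 in C1C3b, 43 and 59 in C1C3c, and 4 and 2 in C1+14. For Zscan4c the C1C3a libraries held 158416 and 182654 reads, those of C1C3b 12988 and 7952, and those of C1C3c 797 and 760. Tcstv3, a 2-cell gene, had 17564 and 23561, then 197 and 178, then 1 and 5. Tcstv1 had 1263 and 1192, then 7 and 9, then 0 in both C1C3c libraries. All 4 keep the order of the chimeras seen in the array, with smaller steps from C1C3a to C1C3b: 4.63 for Usp17lc, 4.53 for Zscan4c, 7.22 for Tcstv3 and 7.55 for Tcstv1 on the log2 scale. Zfp352 had a step of 9.33 (SE 0.40, adjusted p 1.45e-09 against no change, limma) beside 8.59 to 8.63 in the array. Whether its step differs from that of the array was not tested.

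The genes whose pattern over the 14 libraries of the chimera table was most like that of the array sum, by Pearson's r on the log2(value + 1) scale, were Gm12918 (r 0.985), Gm9843 (0.984), Rpl10-ps1 (0.983), Gm8430 (0.982) and Gm5805 (0.980). Of 21577 genes ranked, 200 had an r over 0.95. In the 8 libraries of the deletion table their r was 0.92 to 0.93. All have at least 54.2% of their sampled stretches in other genes. The likeness is in order and not in size, since Gm12918 reached 6566 ± 949 normalised reads in FL from 1634 ± 35.0 for mCherry (SD, n = 2). The libraries share group, scaling and high-copy set, so these values are descriptions.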

How the data were processed

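Poly(A) RNA libraries were made with a stranded Illumina kit, per the labels' protocols. Trim Galore 0.5.0, FastQC, DESeq2 and the mm10 build are named in the submitters' processing notes; aligner, counter, annotation and treatment of reads matching several genes are not given in the sources used here. The deposited values are a signal, read counts divided by 1 size factor per library, in 2 separately scaled tables; every value was a whole multiple of its library's step within 0.01 of a read, so reads were recovered by division. Symbols came from GENCODE M21 for 55141 of 55487 identifiers. The design had assumed normalised values, which the files hold.

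Tests used limma 3.58.1 (R 4.3.3, lmFit, eBayes with trend) on log2(value + 1), over genes reaching 10 in 2 or more libraries, with Benjamini-Hochberg adjustment. All groups of a table shared the spread, FL and mCherry included. Groups with every member at 0 in both libraries, mCherry and deltC12345+14, add no spread for the members. The log2(value + 1) scale understates the change of low genes. The floor was 3 reads per library and member, and 21 for the array sum, 3 at each copy. Intervals and floors cover counting error only, since there are no molecular identifiers and reads may repeat a molecule. Replicates differed by a chi-square of 3.31 to 78.9 per gene, so none is a duplicate. The scripts were tested on simulated data. Alternatives were pseudocounts of 0.1 and 8, no low-value filter, edgeR 4.0.16 and DESeq2 1.42.0 on recovered reads, other scalings, a replicate block, 2-group fits and leaving out each library. Relatives were aligned with BLAST 2.17.0.

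Named genes are the 7 members, the 2 listed genes nearest on each side, the 5 most alike by Pearson's r, the Dux locus and 5 genes of the 2-cell list; sequence relatives were added after values were seen, by alignment. The members and lists were chosen with earlier results of these data known.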

Additional observations from a re-analysis of the deposited data

How the results depend on the processing

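The count of 7 of 7 members called higher was the same under every alternative run in 8 of the 9 comparisons with calls, leaving out each library included (lowest and highest 7). The exception was C1C3c against C1+14, with 0 members called when only the 2 groups were fitted and 2 when the low-value filter was also applied within them, an alternative chosen after seeing the data; fewer libraries enter that fit. Of 882 refitted member fold changes 870 kept direction and call, 12 lost the call and 0 reversed. The 7 members share reads, so these are not counts of independent results. The number of all genes called varied more: for C1C3c against C1+14 from 1690 to 548 without C1C3c replicate 2, 706 without C1+14 replicate 2, and 461 and 0 in the 2-group fits; for C1C3b against C1C3c from 2415 to 1441 without C1C3b replicate 2, 1460 without C1C3c replicate 1 and 496 in the 2-group fit; for C1C3a against C3+14 from 3215 to 1749 without C3+14 replicate 2 and 1998 without C1C3a replicate 2; for C12345delt14 against deltC12345delt14 from 4365 to 1869 without C12345delt14 replicate 1, 2843 and 2867 without either deltC12345delt14 library, and 6985 with equal totals; and against deltC12345+14 from 3928 to 1567 without C12345delt14 replicate 1, 1981 without deltC12345+14 replicate 2 and 6934 with equal totals. For deltC12345+14 against deltC12345delt14 it was 0, and 3 with a pseudocount of 0.1, 7 in the 2-group fit, 2 by DESeq2 and 1 without deltC12345+14 replicate 1. Equal totals moved the median log2 fold change of all genes from 0.13 to -0.94 for C1C3a against C1+14, and quantile normalization to -0.27 with 39.1% of calls higher.

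mCherry, like C3+14, is of the lower high-copy set. FL and the chimeras are of the higher set, so in their folds over mCherry group and set cannot be told apart. The array sum against mCherry, as log2 of the fold over the floor, was 18.71 for FL, 11.25 for C3+14, 18.22 for C1C3a, 9.60 for C1C3b and 2.83 for C1C3c. As a percent of library total it was 17.63 for FL, 10.46 for C3+14 and 17.29 for C1C3a, relative to the library's reads outside the array 17.90, 10.46 and 17.48, and without Gm6763 11.46 for C3+14. Leaving out 1 library gave 18.14 to 19.12 for FL, 11.07 to 11.45 for C3+14, 17.95 to 18.45 for C1C3a, 9.42 to 9.80 for C1C3b, 2.63 to 3.04 for C1C3c, and against FL -7.88 to -6.89 for C3+14 and -1.86 to -0.90 for C12345delt14. Same-numbered replicates did not deviate together in the chimera table (r -0.10 to 0.05 over 21 pairs of groups). In the deletion table r ran from -0.57 to 0.14 over 6 pairs, with 1 pair over 0.1 and 1 under -0.1. A negative r means that differently numbered libraries of 2 groups deviated alike. The replicate block gave 7 of 7 members in 9 comparisons and 0 in the other, with 1548 genes called for C1C3c against C1+14 in place of 1690. With the pairing crossed between deltC12345+14 and deltC12345delt14, 0 genes were called, as with the uncrossed block. Depth limits C1+14, mCherry and the groups lacking C12345, all at or under 3 reads per member and library.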
